A study of Mus musculus with 12 samples.

Results

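The 10 genes described here are those of slow (type I) and oxidative (type IIa) muscle fibres: Myh7, Myh2, Myl2, Myl3, Tnnt1, Tnni1, Tnnc1, Atp2a2, Tpm3 and Myoz2. They were taken by symbol from a table of 10475 genes in TPM, a level per transcript length that is scaled to the library's total, and all 10 were found in it and passed the filter for testing. The samples are gastrocnemius muscles of 8-week-old C57BL/6 mice. TG mice carry a liver-specific overexpression of the transcriptional repressor E4BP4 (gene Nfil3), and WT mice are wild type. The labels do not name the promoter that drives the transgene, the sex of the mice or the day of collection. Each genotype was sampled at ZT12 and at ZT0, counted in hours from lights on under 12 h of light and 12 h of dark, with chow at hand. The 4 groups were TG at ZT12, WT at ZT12, TG at ZT0 and WT at ZT0, with 3 libraries each. The labels do not say whether 1 library is 1 mouse, so the p-values given here measure the spread between these libraries.

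Skeletal muscle is a mosaic of fibre types. Type I fibres contract slowly, rest on mitochondrial metabolism and build their sarcomeres from a set of proteins partly shared with the heart ventricle. Type IIa fibres are fast but also oxidative, while type IIx and IIb fibres are fast and mostly glycolytic. In the mouse, the gastrocnemius is a mixed muscle in which IIb fibres dominate, and slow and oxidative fibres lie mainly in a deep region next to the soleus. In whole-muscle RNA, fewer fibres of a type and less RNA per fibre cannot be told apart.

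Myh7 and the genes whose correlation with it passed the test (Tnnt1, Tnni1, Tnnc1, Tpm3, Atp2a2 and Myl2) largely went up and down together. These 7 were set together by their values in these data. Myl3 (r = 0.55 with Myh7) and Myoz2 (r = 0.41) followed Myh7 less closely. Between the lowest and the highest library, the 7 differed by 5.33-fold for Atp2a2 to 15.4-fold for Myh7. The same was seen among libraries of 1 group: in WT muscle at ZT0, Myh7 differed 15.4-fold. Myh2, the IIa heavy chain, did not go with them. None of the 10 genes passed the test for genotype, for time or for their interaction, and for 8 of them the within-group SD was larger than each difference between 2 groups, the exceptions being Myl2 and Myoz2 over time in WT muscle and Myoz2 between genotypes at ZT12.

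Reads recovered from the TPM values summed to 13.1e+06 to 20.2e+06 per library at ZT12 and to 9.21e+06 to 13.2e+06 at ZT0. The log2 levels of WT ZT0 replicate 2 had a median correlation of 0.946 with those of the other libraries, and the other 11 libraries had 0.975 to 0.985. TG ZT12 replicate 1 held less of long transcripts: its log2 level fell by 0.13 per doubling of transcript length against the mean library, and the slopes of the other libraries lay between -0.041 and 0.076. Skeletal muscle markers (Ckm, Acta1, Mb, Mylpf and Des, 5 of 5 listed) summed to 52700 to 63100 TPM. Of 7 heart markers only Myl4 and Tnnt2 are listed, at 5.16 to 9.69 TPM in sum, and the others were not analysed here. Nfil3 had 7.96 to 20.9 TPM in TG muscle at ZT12, 7.40 to 14.0 in WT muscle at ZT12, 13.6 to 20.3 in TG muscle at ZT0 and 16.0 to 18.7 in WT muscle at ZT0. Since the transgene is expressed in liver, these values do not check the labels.

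The members lie on 7 chromosomes, with the transcripts counted by the authors at mm10 positions chr14:54970688-54994549 for Myh7 (minus strand), chr11:67171027-67197517 for Myh2 (plus), chr5:122100980-122106854 for Myl2 (plus), chr9:110763681-110769794 for Myl3 (plus), chr7:4504570-4515975 for Tnnt1 (minus), chr1:135799421-135810989 for Tnni1 (plus), chr14:31208312-31211711 for Tnnc1 (plus), chr5:122453513-122502225 for Atp2a2 (minus), chr3:90072651-90092130 for Tpm3 (plus) and chr3:123006206-123034987 for Myoz2 (minus). Promoters of 300 bases (250 before the start and 50 from it on) were taken from RefSeq on GRCm38.p6, the assembly that mm10 names. For 8 of the 10, a RefSeq start lay within 100 bases of the counted transcript's start, and Myl2 and Atp2a2 are named only. Those of the troponin genes are shown because these 3 subunits of 1 complex moved closely together (r = 0.97 to 0.99). Tpm3 went with them as closely (r = 0.98 with each), and its promoter is not printed. Those of Myh2 and Myoz2 are shown because these genes went less with the troponin genes.
Tnnt1, chr7:4515926-4516225, minus strand: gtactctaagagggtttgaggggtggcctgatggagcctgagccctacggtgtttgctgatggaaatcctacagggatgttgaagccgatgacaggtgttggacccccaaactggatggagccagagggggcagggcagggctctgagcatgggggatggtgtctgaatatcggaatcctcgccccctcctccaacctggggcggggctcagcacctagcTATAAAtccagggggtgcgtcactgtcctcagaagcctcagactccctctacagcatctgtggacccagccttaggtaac
Tnni1, chr1:135799171-135799470, plus strand: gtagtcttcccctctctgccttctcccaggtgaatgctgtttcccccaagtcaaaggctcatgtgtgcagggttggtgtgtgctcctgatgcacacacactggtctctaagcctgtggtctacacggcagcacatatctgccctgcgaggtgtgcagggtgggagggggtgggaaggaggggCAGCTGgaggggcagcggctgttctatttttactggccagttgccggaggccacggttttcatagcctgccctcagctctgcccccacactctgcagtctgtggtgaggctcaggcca
Tnnc1, chr14:31208062-31208361, plus strand: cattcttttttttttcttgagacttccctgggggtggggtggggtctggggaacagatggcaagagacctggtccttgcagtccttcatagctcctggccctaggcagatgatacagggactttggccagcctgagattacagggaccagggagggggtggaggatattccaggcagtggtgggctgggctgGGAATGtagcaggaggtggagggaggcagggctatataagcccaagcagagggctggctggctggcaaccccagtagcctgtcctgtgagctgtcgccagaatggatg
Myh2, chr11:67170777-67171076, plus strand: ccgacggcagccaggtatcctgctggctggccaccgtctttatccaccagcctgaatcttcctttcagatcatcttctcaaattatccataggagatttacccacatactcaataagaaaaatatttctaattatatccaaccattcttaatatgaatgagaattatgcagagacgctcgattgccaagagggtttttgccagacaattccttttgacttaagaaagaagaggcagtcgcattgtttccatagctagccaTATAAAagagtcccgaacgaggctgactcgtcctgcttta
Myoz2, chr3:123034938-123035237, minus strand: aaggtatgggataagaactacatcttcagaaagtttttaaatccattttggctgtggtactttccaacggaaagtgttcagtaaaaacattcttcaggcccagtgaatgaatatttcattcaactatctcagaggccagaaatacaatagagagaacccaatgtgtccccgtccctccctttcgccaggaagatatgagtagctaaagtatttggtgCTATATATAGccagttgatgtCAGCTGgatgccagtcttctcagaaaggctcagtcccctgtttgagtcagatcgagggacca
Capitals mark the matches found on either strand to 4 motifs of muscle and core promoters. These are the MCAT element CATTCC, bound by TEAD factors, the E-box CAGCTG, bound by MyoD family factors, the TATA box TATAAA, and the MEF2 site, searched by its consensus. No match overlapped another. Tnnt1 has TATAAA at -30 to -25 from the start, where 1 is the first transcribed base and -1 the base before it, while Myh2 has it at 11 to 16. Tnni1 has CAGCTG at -68 to -63, Tnnc1 the reverse complement of CATTCC at -58 to -53, and Myoz2 CAGCTG at -12 to -7 beside a MEF2 site at -33 to -24. Of the 8 promoters, 2 held MCAT, 3 the E-box, 2 the TATA box and 1 MEF2, where 14.7, 16.3, 13.6 and 3.19% of 32851 RefSeq promoters of that length did. The 3 troponin promoters shared none of the 4 motifs in this window.

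Myh7 encodes the type I heavy chain, the motor of slow fibres. Its level was 13.0, 39.4 and 15.7 TPM in TG muscle at ZT12, 18.5, 14.0 and 39.6 TPM in WT muscle at ZT12, 16.3, 30.0 and 11.7 TPM in TG muscle at ZT0, and 22.5, 53.0 and 3.44 TPM in WT muscle at ZT0, each in the order of replicates 1, 2 and 3. The lowest and the highest of the 12 values thus both come from WT muscle at ZT0, and every other group lies between them. Even the lowest value rests on 293 reads (95% Poisson interval 260 to 329, for counting error alone), so counting error is small beside the 15.4-fold range. Group means were 22.7 ± 14.5 TPM in TG at ZT12, 24.0 ± 13.7 in WT at ZT12, 19.3 ± 9.51 in TG at ZT0 and 26.3 ± 25.0 in WT at ZT0 (SD, n = 3 each), and no neighbours in that order differ beyond their spread.

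Myh2 encodes the IIa heavy chain of fast oxidative fibres. It had 53.2, 128 and 42.0 TPM in TG muscle at ZT12, 73.6, 142 and 51.0 in WT muscle at ZT12, 79.9, 80.4 and 95.5 in TG muscle at ZT0, and 74.7, 78.9 and 77.5 in WT muscle at ZT0. At ZT0 the 6 values lie close together, and at ZT12 both genotypes have replicate 2 high and replicate 3 low. The library with the least Myh7, WT ZT0 replicate 3, had a middle level of Myh2. Group means were 74.5 ± 46.8 TPM in TG at ZT12, 88.9 ± 47.4 in WT at ZT12, 85.2 ± 8.88 in TG at ZT0 and 77.0 ± 2.17 in WT at ZT0 (SD, n = 3 each).

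Set against the heavy chains Myh1 (IIx) and Myh4 (IIb), both were minor. Myh4 took 93.5 to 97.0% of the TPM of the 4 adult heavy chains in each library, Myh1 1.80 to 4.21%, Myh2 0.513 to 2.07% and Myh7 0.0489 to 0.765%. The Myh7 share averaged 0.294 ± 0.125% in TG muscle and 0.381 ± 0.274% in WT muscle (SD, n = 6 each, both times), a difference of -0.0866 percentage points (two-sided exact permutation test within each time, p = 0.54, smallest possible 0.005). The Myh2 share averaged 1.14 ± 0.361% in TG muscle and 1.23 ± 0.429% in WT muscle, a difference of -0.0883 points (the same exact test, p = 0.75). Single libraries set both signs: without WT ZT0 replicate 2 the Myh7 difference was 0.0107 points, and the Myh2 difference was 0.0871 points without WT ZT12 replicate 2 and 0.0514 without TG ZT12 replicate 3. With at least 480610 reads on these 4 genes in each library, the counting intervals of the lowest and the highest share did not overlap (0.0436 to 0.055% and 0.744 to 0.789% for Myh7, 0.502 to 0.532% and 2.06 to 2.12% for Myh2), while those of some libraries between them did.

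**Figure D1:**
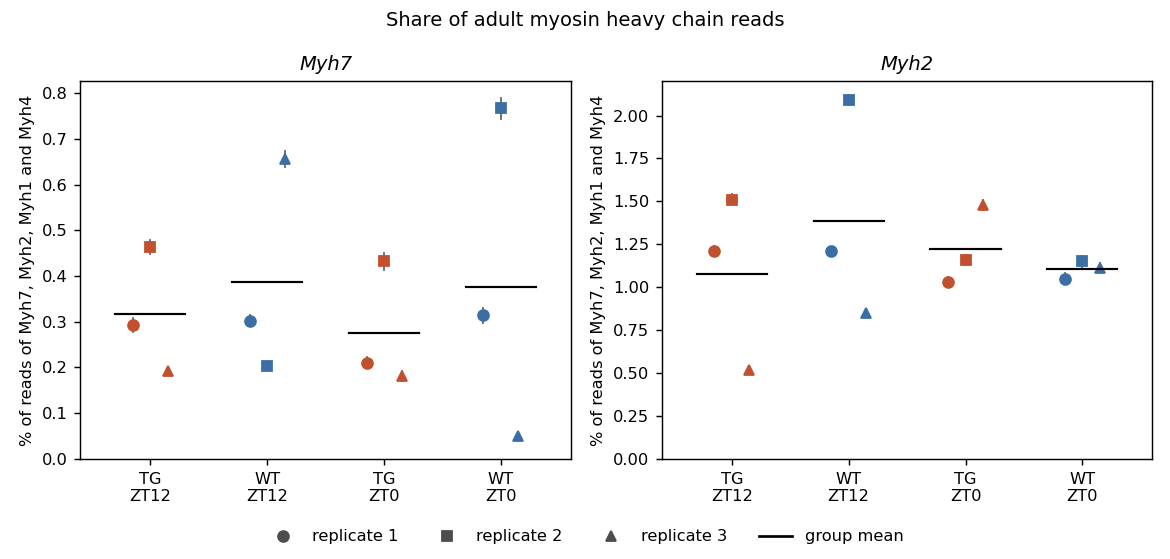
Share of Myh7 (left) and Myh2 (right) in the reads of the 4 adult myosin heavy chain genes, in percent, by group. Points are libraries, bars 95% exact binomial (Clopper-Pearson) intervals for counting error and black lines group means; the Myh7 shares of WT ZT0 replicates 3 and 2 are the lowest and the highest, and the Myh2 share is lowest in TG ZT12 replicate 3 and highest in WT ZT12 replicate 2.

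The light chains bind the neck of the heavy chain. Myl2, the regulatory light chain of slow fibres and the ventricle, had 164, 154 and 72.7 TPM in TG muscle at ZT12, 149, 120 and 196 in WT muscle at ZT12, 99.4, 136 and 76.5 in TG muscle at ZT0, and 106, 165 and 31.6 in WT muscle at ZT0. Again WT ZT0 replicate 3 was the lowest library, and the ranges of the groups overlapped in each contrast. Myl3, the essential light chain of the same fibres, had 179, 149 and 46.9 TPM in TG muscle at ZT12, 123, 130 and 174 in WT muscle at ZT12, 116, 172 and 128 in TG muscle at ZT0, and 109, 164 and 72.8 in WT muscle at ZT0. Its lowest library was TG ZT12 replicate 3, which was not the lowest for Myl2. Over the 12 libraries, the light chains had r = 0.76 with each other on log2(TPM + 1).

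The thin filament genes encode the slow troponin subunits and slow tropomyosin. Tnnt1, the subunit that binds tropomyosin, had 68.3, 77.1 and 40.6 TPM in TG muscle at ZT12, 62.3, 33.1 and 119 in WT muscle at ZT12, 36.4, 86.1 and 35.9 in TG muscle at ZT0, and 55.5, 99.6 and 14.0 in WT muscle at ZT0. Tnnc1, the calcium-binding subunit, had 85.6, 81.5 and 38.2 TPM in TG muscle at ZT12, 70.5, 38.4 and 145 in WT muscle at ZT12, 35.4, 87.7 and 29.2 in TG muscle at ZT0, and 62.1, 109 and 12.8 in WT muscle at ZT0. Both were lowest in WT ZT0 replicate 3 and highest in WT ZT12 replicate 3. Tnni1, the inhibitory subunit, ran from 6.88 to 73.2 TPM between the same libraries. Tpm3, whose muscle product is slow tropomyosin and which also makes non-muscle forms, ran from 10.8 to 105 TPM between them. Tnnt1 and Tnni1 have transcripts whose length differs between the authors' tables of the 2 times (1014 and 979 bases for Tnnt1 and 1075 and 1027 bases for Tnni1). The TPM values gave whole reads with 979 bases for Tnnt1 and with 1075 for Tnni1, judged in 2 and 7 libraries. The gap between the lengths is small beside these ranges.

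Atp2a2 encodes SERCA2, the calcium pump of slow fibres and heart. It had 16.1, 44.5 and 27.8 TPM in TG muscle at ZT12, 29.6, 26.6 and 41.8 in WT muscle at ZT12, 24.8, 39.8 and 21.0 in TG muscle at ZT0, and 30.2, 59.3 and 11.1 in WT muscle at ZT0, with the extremes in the same libraries as for Myh7. Myoz2, or calsarcin-1, ties calcineurin to the Z-disc of slow fibres. It had 47.8, 53.8 and 25.2 TPM in TG muscle at ZT12, 56.0, 57.2 and 50.8 in WT muscle at ZT12, 43.2, 45.9 and 41.9 in TG muscle at ZT0, and 37.8, 43.3 and 31.6 in WT muscle at ZT0. Its 12-library range of 2.27-fold was the narrowest of the 10, and 3 of its groups were tight, with TG ZT12 replicate 3 standing below the other libraries of its own group.

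**Figure D2:**
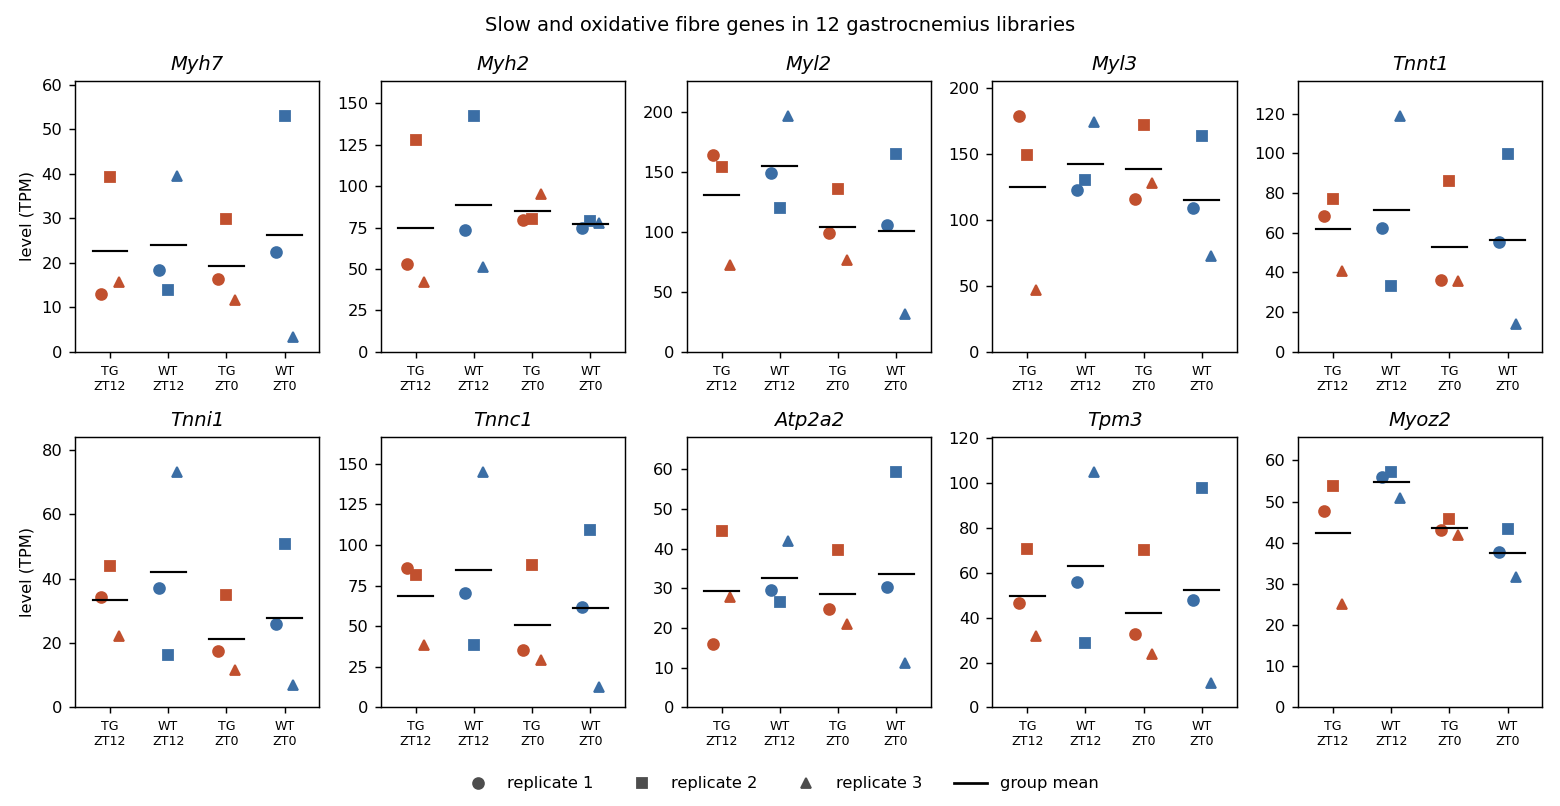
Level in TPM (linear axis from 0) of each gene in the 12 libraries, by group, with replicate numbers as symbols and group means as black lines. Myh7 spans 3.44 to 53.0 TPM within WT at ZT0 alone, while Myoz2 stays between 25.2 and 57.2 TPM over all libraries.

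The spread between libraries of the same group was then set against that of other genes. On the log2(TPM + 1) scale, the within-group SD of Myh7 was 1.12, which placed it 33rd of 10415 tested genes and 20th of the 3971 with a mean of at least 10 TPM. Tnnc1 had an SD of 1.05, Tpm3 1.02, Tnni1 0.98, Tnnt1 0.94, Myl2 and Atp2a2 0.74, Myl3 0.62, Myh2 0.56 and Myoz2 0.31. The median of the 10 was 0.84, against 0.24 for all tested genes and 0.20 for those of at least 10 TPM. Of the total variance of each gene, 61.4% (Myoz2) to 97.7% (Myh7) lay within the groups.

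Their fast-fibre paralogs spread less. Myh4, Mylpf, Myl1, Tnnt3, Tnni2, Tnnc2, Atp2a1, Tpm1 and Myoz1 had within-group SDs of 0.09 to 0.29, and Myh1, the partner set beside Myh2, had 0.49, with a median of 0.20 over the 10. Tnnt1 amounted to 0.0728 to 0.672% of the level of Tnnt3, a range of 3.21 on the log2 scale, while Tnnt3 itself ranged over 0.28. Myh7 amounted to 0.0507 to 0.804% of Myh4 and Tnnc1 to 0.0681 to 0.731% of Tnnc2. Myh2 reached 22.6 to 64.2% of Myh1 and Myoz2 1.58 to 4.12% of Myoz1. The fast partners of 9 pairs ranged over 0.28 to 1.03 on the log2 scale and Myh1 over 1.48, whereas the slow-to-fast ratios ranged over 1.39 (Myoz2) to 3.99 (Myh7).

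**Figure D3:**
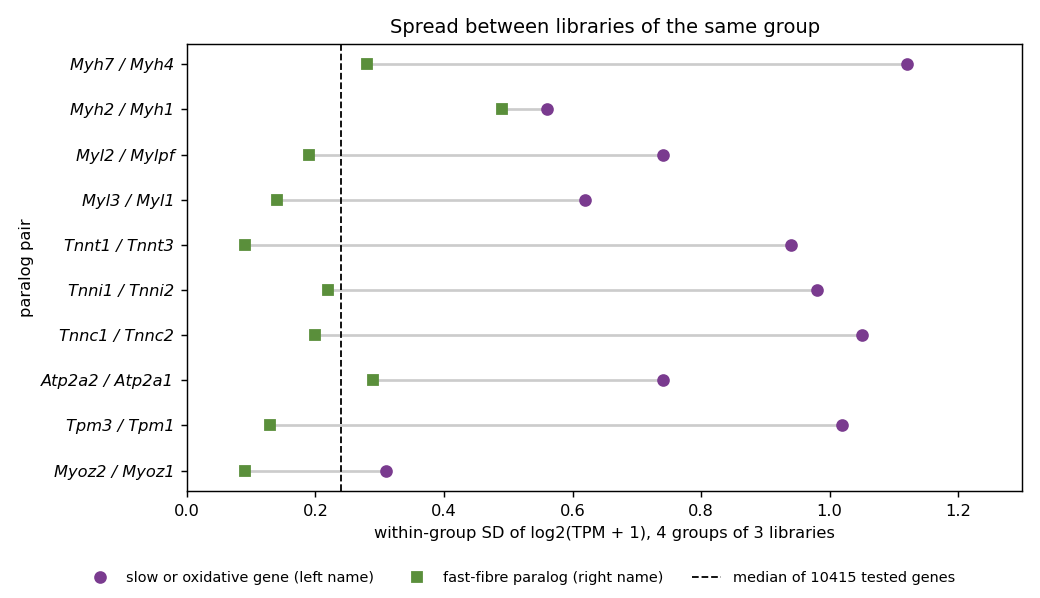
Within-group SD of log2(TPM + 1) over 4 groups of 3 libraries for each slow or oxidative gene (circles) and its fast-fibre paralog (squares). The broken line is the median of all tested genes, 0.24; all 10 circles lie to the right of it, and Myh7 is the farthest at 1.12.

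Correlations over the 12 libraries, on log2(TPM + 1), show which genes went together. All libraries share 1 scaling by their own total, and 9 relations were computed for Myh7, with permutation p-values (100000 permutations, smallest possible 1e-05) adjusted by Benjamini-Hochberg (BH) over the 9. Myh7 went with Atp2a2 (Pearson r = 0.96, Spearman rho = 0.97, BH-adjusted permutation p = 9e-05 for both). It went with Tpm3 (r = 0.95, rho = 0.94, adjusted permutation p = 9e-05 for both) and with Tnnt1 (r = 0.92, p = 0.00018; rho = 0.85, p = 0.00182). The other 3 relations that passed were those with Tnni1 (r = 0.89, p = 0.000315; rho = 0.89, p = 0.00093), Tnnc1 (r = 0.89, p = 0.00045; rho = 0.80, p = 0.00428) and Myl2 (r = 0.83, p = 0.00202; rho = 0.71, p = 0.0196).

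Myl3 (r = 0.55, rho = 0.41, adjusted permutation p = 0.0952 and 0.249), Myoz2 (r = 0.41, rho = 0.31, 0.206 and 0.359) and Myh2 (r = 0.02, rho = -0.04, 0.945 and 0.904) did not pass. Without WT ZT0 replicates 2 and 3, the libraries farthest from the median of Myh7, r was 0.92 for Atp2a2, 0.89 for Tpm3, 0.81 for Tnnt1, 0.80 for Tnni1, 0.76 for Tnnc1 and 0.60 for Myl2. The relation with Myl2 then missed the threshold (adjusted permutation p = 0.105), as it did without WT ZT0 replicate 3 alone (r = 0.63, p = 0.0574), and for Tnnc1 the rank correlation did (rho = 0.66, p = 0.0786). In the settings run, the relation with Myl2 passed only with WT ZT0 replicate 3 included. In TG ZT12 replicate 1, the library with less of long transcripts, Myh7 had 13.0 TPM and Myl2 164 TPM. No correlation was computed without that library. Taken as deviations from the 4 group means, the same number of 6 relations passed.

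**Figure D4:**
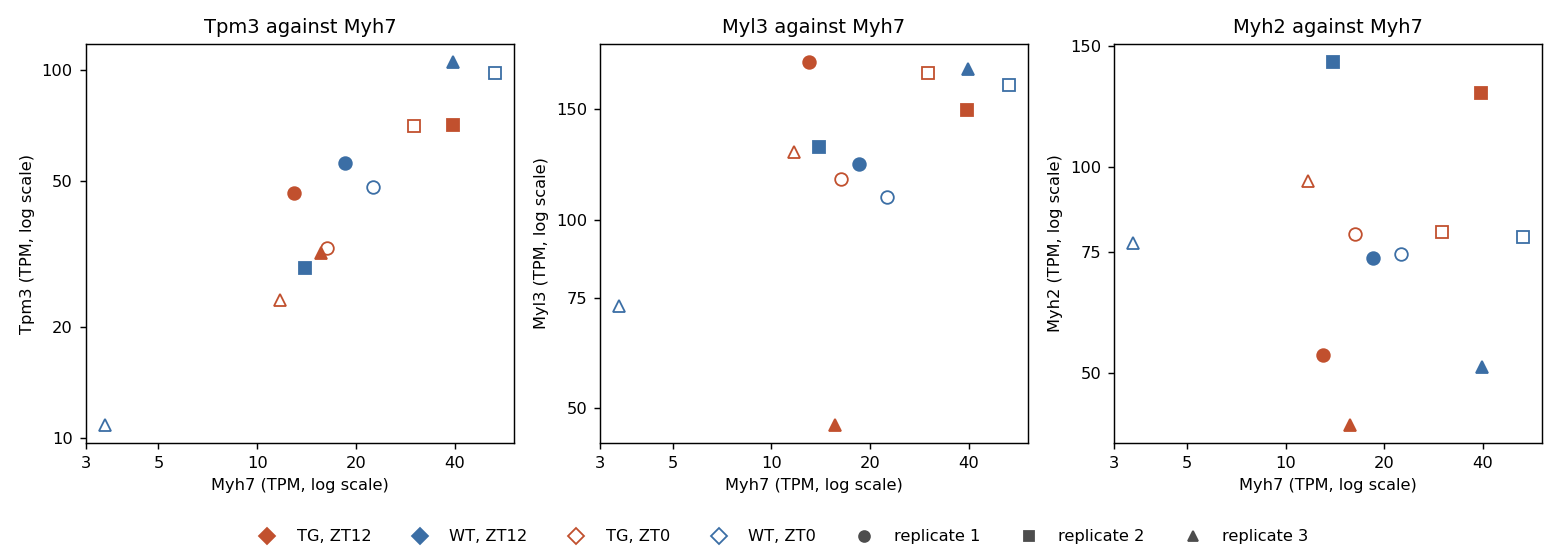
Tpm3, Myl3 and Myh2 against Myh7 in the 12 libraries (TPM, both axes logarithmic). Tpm3 climbs with Myh7 along the whole range (r = 0.95), Myl3 less closely (r = 0.55), and Myh2 shows no trend (r = 0.02).

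Among the slow genes themselves the thin filament set was closest. The r was 0.99 between Tnnt1 and Tnnc1, 0.98 between Tnni1 and Tnnc1 and 0.97 between Tnnt1 and Tnni1. Tpm3 had 0.98 with each of the 3 troponin genes. The transcripts of these thin filament genes run from 695 bases (Tnnc1) to 1125 (Tpm3), where Myh7 has 6011 and Atp2a2 4292. All these r include TG ZT12 replicate 1, the library with less of long transcripts, and the part of length in them was not tested. Myl3 and Myoz2 went more with each other (r = 0.83) than Myoz2 did with Myh7 (0.41), a difference that was not tested. With Myl2, Myl3 had r = 0.76 and Myoz2 0.72. Myh2 had no relation past the threshold with any of the others (BH-adjusted permutation p from 0.698 to 0.992 over 9 relations), its r running from -0.25 with Tnni1 to 0.53 with Myoz2. The last fell to -0.01 without WT ZT12 replicate 2 and TG ZT12 replicate 3, the libraries farthest from the median of Myh2, so it rests on them.

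By library, the extremes fell as follows. WT ZT0 replicate 3 held the lowest level of 7 of the 10 genes. Over all 10, its difference from the 12-library mean (log2) ran from -2.18 for Myh7 to 0.01 for Myh2. TG ZT12 replicate 3 held the lowest level of the other 3, which are Myh2, Myl3 and Myoz2. WT ZT12 replicate 3 held the highest level of 5 (Myl2, Tnnt1, Tnni1, Tnnc1 and Tpm3) while its Myh2 lay at -0.58. In WT ZT12 replicate 2 Myh2 lay at 0.88 and Tnni1 at -0.67. TG ZT12 replicate 1, the library with less of long transcripts, had Tnnc1 at 0.61 but Atp2a2 at -0.79, and its Myh7 level was 15.2% of its Tnnc1 level where the other libraries had 26.3 to 48.5%. Myh7 and Atp2a2 are long transcripts (6011 and 4292 bases) and Tnnc1 is short (695 bases); the part of length in this was not tested. Over the 12 libraries, the members' mean level had r = 0.32 with the recovered reads and 0.17 with the length slope, given as descriptions.

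**Figure D5:**
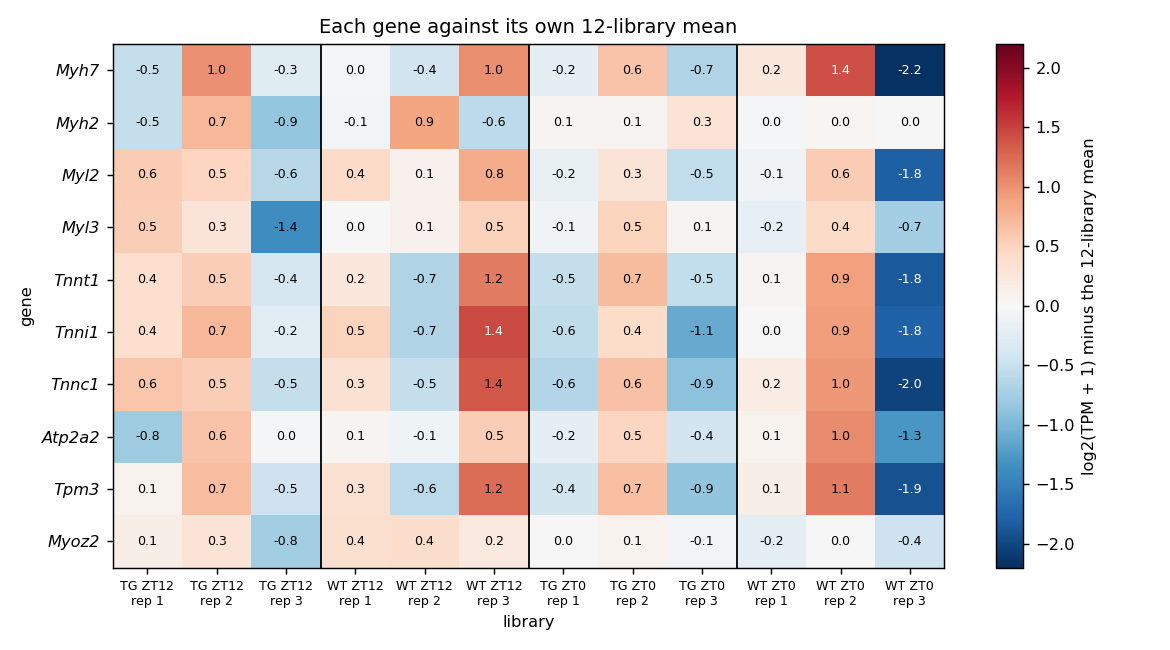
Difference of log2(TPM + 1) from each gene's 12-library mean, genes down and libraries across, with vertical lines between the groups. WT ZT0 replicate 3 is blue for all genes but Myh2, and in WT ZT12 replicates 2 and 3 the colour of Myh2 is opposite to that of the thin filament genes.

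Whether liver E4BP4 moved these genes in muscle was asked at each time with limma on log2(TPM + 1) over all 12 libraries, each p adjusted by BH over the 10415 tested genes. At ZT0, 0 of the 10 were called and 0 had an unadjusted p under 0.05; limma called 0% of all genes, with 117 at an unadjusted p under 0.05. Of the 10, 9 were nominally higher and 1 lower in TG muscle (5 and 5 with a pseudocount of 5), beside 23.5% of all genes higher. Their median log2 difference was 0.12, where the median of all genes was -0.10. Myl3 differed by 0.32 (standard error 0.42), Myh2 by 0.14 (0.38) and Myh7 by 0.09 (0.75), and every adjusted p was 0.998 or more. The Myl3 difference was 0.03 without WT ZT0 replicate 3 and 0.61 without WT ZT0 replicate 2. That count of 9 rests on single libraries: without WT ZT0 replicate 3, 3 were higher and the median was -0.61, and without TG ZT0 replicate 2, 4 were higher and the median was -0.25. Upper-quartile scaling moved the median of all genes by 0.11. Myh2 was the one member whose groups did not overlap, at 79.9 to 95.5 TPM in TG and 74.7 to 78.9 TPM in WT muscle, as was so for 4.62% of all genes.

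At ZT12, 0 of the 10 were called and 0 had an unadjusted p under 0.05, beside 0% of all genes called (99 at an unadjusted p under 0.05). All 10 were nominally lower in TG muscle (9 under median-of-ratios or upper-quartile scaling), with a median of -0.23 against -0.07 for all genes. Most genes were lower too, as only 23.4% of all genes were higher. Myoz2 differed by -0.43 (standard error 0.22), Myh2 by -0.29 (0.38) and Myh7 by -0.11 (0.75), each with an adjusted p of 1.00. The Myoz2 difference was -0.10 without TG ZT12 replicate 3. Without that library, 8 of the 10 were higher, with a median of 0.06, and without WT ZT12 replicate 3, 5 were higher. No member had groups that did not overlap, as 4.79% of all genes had.

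Over both times 0 of the 10 were called by limma and 0 had an unadjusted p under 0.05, with 0% of all genes called and 166 at an unadjusted p under 0.05. The median difference was -0.08, against -0.09 for all genes, and 9 were nominally lower in TG muscle (4 under median-of-ratios scaling). Most genes were lower here as well, with 16.2% of all genes higher. Myh7 differed by -0.01 (standard error 0.51) and Myh2 by -0.08 (0.27), with adjusted p of 0.999 and 0.951. Scaling by median of ratios turned both to positive values (0.09 and 0.02). The interaction of genotype and time called 0 of the 10, with 0 at an unadjusted p under 0.05, and 0% of all genes, with 69 at an unadjusted p under 0.05. It was -0.70 (0.60) for Myl3, -0.65 (0.31) for Myoz2 and -0.20 (1.07) for Myh7, each with an adjusted p of 1.00. Without TG ZT12 replicate 3 it was -0.11 for Myl3 and -0.32 for Myoz2. In the authors' deposited table, each of the 10 had an adjusted p of 0.9999 for TG and WT at both times. On recovered reads, limma-voom called 0 of the 10 in each of the 6 contrasts.

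Time was asked in each genotype. In WT muscle, 0 of the 10 passed, with 1 (Myoz2) at an unadjusted p under 0.05, beside 0.115% of all genes called (12 of 10415) and 484 of all genes (4.65%) at an unadjusted p under 0.05. Myoz2 was 50.8 to 57.2 TPM at ZT12 and 31.6 to 43.3 TPM at ZT0, groups that did not overlap, as for 10.8% of all genes; the log2 difference was 0.54 (standard error 0.22, adjusted p = 0.948). Myl2 differed by 0.88 (0.50), Myh7 by 0.36 (0.75) and Myh2 by 0.08 (0.38), each with an adjusted p of 1.00. The Myl2 difference was 0.20 without WT ZT0 replicate 3 and 1.37 without WT ZT0 replicate 2. All 10 were nominally higher at ZT12, beside 39.8% of all genes, with a median of 0.54 against -0.05 for all genes. But 4 were higher and the median was -0.10 without WT ZT0 replicate 3. Without WT ZT0 replicate 2, the library whose levels correlate least with the others, the median was 1.14.

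In TG muscle, 0 of the 10 passed and 0 had an unadjusted p under 0.05, beside 0.154% of all genes called (16 of 10415) and 368 at an unadjusted p under 0.05. Of the 10, 6 were nominally higher at ZT12 and 4 lower (7 and 3 under median-of-ratios scaling), beside 46.7% of all genes higher. Their median was 0.22 against -0.01 for all genes. The members' median was -0.15 without TG ZT12 replicate 2 and -0.08 without TG ZT0 replicate 3. Tnni1 differed by 0.71 (standard error 0.66), Myh7 by 0.16 (0.75) and Myh2 by -0.36 (0.38), each with an adjusted p of 1.00. With 1 library left out, Tnni1 ran from 0.36 (without TG ZT0 replicate 3) to 1.12 (without TG ZT0 replicate 2), and Myh2 from -0.83 (without TG ZT12 replicate 2) to -0.04 (without TG ZT12 replicate 3). No member's groups were apart, as those of 7.08% of all genes were. Libraries at ZT12 had 13.1e+06 to 20.2e+06 recovered reads and those at ZT0 9.21e+06 to 13.2e+06, and the labels give no batch, so time and a difference in sequencing cannot be told apart.

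Summed levels of markers of other cells are given by group. The 5 erythroid genes were Hba-a1, Hba-a2, Hbb-bs, Hbb-bt and Alas2, all listed and none at 0. At ZT12, replicates 1, 2 and 3 summed to 2960, 4560 and 145 TPM in TG muscle and to 1530, 4260 and 176 in WT muscle. In both genotypes replicate 2 was thus the highest and replicate 3 the lowest, as for Myh2, a likeness that was not tested. At ZT0 the genes summed to 110 to 156 TPM in TG muscle and 86.2 to 163 in WT muscle. The 4 fibro-adipogenic genes (Pdgfra, Dcn, Col1a1 and Col3a1, none at 0) summed to 369 to 593 TPM, 493 to 551, 367 to 460 and 361 to 396 in the same order of groups. The mean log2 level of each list given here over the 12 libraries had r = 0.18 (erythroid), 0.56 (fibro-adipogenic), 0.44 (endothelium) and -0.71 (fast paralogs) with the members' mean, and their part in the members' levels was not tested.

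Other genes of slow or oxidative fibres, from a list of 20 of which 16 are listed, were tested beside them. Of the 16, 0 were called in any of the 6 contrasts by limma. In WT muscle over time 15 were nominally higher and 1 lower, beside 39.8% of all genes higher, with a median of 0.40 against -0.05 for all genes. Of the 16, 4 had an unadjusted p under 0.05, where 4.65% of all genes had. These were Ankrd2, a stretch-responsive protein (0.85, standard error 0.25, adjusted p = 0.419), Casq2, the calsequestrin of slow fibres and heart (0.70, 0.23, adjusted p = 0.59), Csrp3, a Z-disc LIM protein (0.73, 0.30, adjusted p = 0.948), and Fabp3, a fatty acid carrier (0.68, 0.22, adjusted p = 0.55). Over time in TG muscle, Ankrd2 alone had an unadjusted p under 0.05 (0.60, 0.25, adjusted p = 1.00), where 3.53% of all genes had. For TG against WT over both times, Csrp3 alone did (-0.54, 0.21, adjusted p = 0.929), where 1.59% of all genes did. At ZT12 2 of the 16 were nominally higher and 14 lower in TG muscle (6 and 10 under median-of-ratios scaling), beside 23.4% of all genes higher. Casq2 alone had an unadjusted p under 0.05 (-0.52, 0.23, adjusted p = 1.00), where 0.951% of all genes had.

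Of 20 regulators of fibre type, such as calcineurin subunits, NFAT and MEF2 factors, 19 are listed and 0 were called in the 6 contrasts. Myod1, the myogenic factor linked to fast fibres, differed by -1.17 (0.30) between ZT12 and ZT0 in TG muscle and by -1.21 (0.30) in WT muscle, with adjusted p of 0.339 and 0.232. Rcan1, a target and inhibitor of calcineurin, differed by 0.88 (0.33) in TG and 0.75 (0.33) in WT muscle (adjusted p = 1.00 in both), and Myog, another myogenic factor, by -0.31 (0.20) in TG and -0.58 (0.20) in WT muscle (adjusted p = 1.00 and 0.635). Myod1 was called in WT muscle under median-of-ratios scaling, without TG ZT12 replicate 1 and with the length slope as a covariate. The fast paralogs had 0 of 10 called in each contrast.

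Of the 16, 12 had a higher r with Myh2 than with Myh7 over the 12 libraries, and 10 did without WT ZT12 replicate 2 and TG ZT12 replicate 3. Over the 12 libraries Lpl, lipoprotein lipase, had r = 0.81 with Myh2 and 0.16 with Myh7. Smtnl1, a smoothelin-like protein of type IIa fibres, had 0.81 and 0.06 in that order, Ldhb, the lactate dehydrogenase subunit of oxidative tissue, 0.70 and 0.12, and Mb, myoglobin, 0.60 and -0.13. Without those 2 libraries the r with Myh2 was 0.76 for Lpl, 0.56 for Smtnl1, 0.44 for Ldhb and 0.10 for Mb, so that of Mb rests on them. Myom3, an M-band protein, had 0.57 and 0.64. With Myom3, the genes of higher r with Myh7 were Myl6b, a light chain of slow and non-muscle myosin (-0.32 and 0.51), Csrp3 (0.03 and 0.44) and Ankrd2 (0.24 and 0.40). Fabp3 had 0.17 and -0.14 over the 12 libraries and an r of -0.30 with Myh2 without those 2. These are descriptions over libraries that share 1 scaling, and the differences between the values were not tested. Myh1 had r = 0.68 with Myh2 and 0.11 with Myh7.

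Over all 10405 other tested genes, 24 had r of 0.8 or more and 2 of 0.9 or more with the mean of the 10. The closest was Mhrt (r = 0.96), which ran from 2.48 TPM in WT ZT0 replicate 3 to 24.0 TPM in WT ZT12 replicate 3. Mhrt is annotated in GENCODE as antisense to Myh7 and overlaps it, and the library kit named in the labels does not mark strand, so reads of the pair cannot be told apart. Next were Tiprl (0.941, from 3.44 to 5.13 TPM), Trappc4 (0.87), Pigk and Fbxw9 (both 0.843), Pdia5 (0.84), Cnot8 (0.831), Zfp330 (0.828), Tmem167 (0.823) and Ptgr1 (0.821). Fbxw9 ran from 0.578 to 2.71 TPM and Ptgr1 from 0.577 to 1.53 TPM, low levels beside those of the members.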

How the data were processed

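Poly(A) RNA of 12 gastrocnemius libraries was sequenced. Per the submitters' processing notes, the tools were HOMER 4.11.1, STAR, DESeq2 and bcl2fastq and the build mm10; the counting of strand is not given in the sources used here. The deposited TPM table of 10475 genes is the authors' own; no listed gene is under 1 TPM in the first WT library of ZT0, while 134 reach 0 in another library. From the tables the authors deposited for each time, only transcript positions and lengths, log2 fold changes and p-values were read; 12 columns of per-library values there were not used. One marker list is not reported here.

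A gene was tested if 3 or more libraries had 1 TPM or more (10415 genes). The test was limma-trend (limma 3.58.1, R 4.3.3) of log2(TPM + 1) values, with 4 group means over 12 libraries, or genotype and time for both times together, at a BH-adjusted p under 0.05. Fold differences on this scale understate changes of low genes. The 10 members, the lists and the tests were chosen with earlier results of these data known. Named genes are the members, their fast paralogs, the 10 genes closest to the members' mean, and list genes past a threshold; list genes at an unadjusted p under 0.05 and those named for their correlations were chosen after their values were seen.

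TPM times transcript length gave whole reads (within 0.1 read, for values under 500 reads) for 99.8 to 100% of values in each library, and those reads went into limma-voom as an alternative and into the counting intervals. Intervals cover counting error only; 95% Poisson intervals were used for reads and exact Clopper-Pearson intervals for shares. Shares were tested by exact permutation of genotype within each time (400 permutations), correlations by 100000 permutations. The fits were tested on simulated data. Same-numbered libraries had correlations of their deviations from -0.35 to 0.29 (18 pairs, median 0.06 against -0.02 for other pairs). The main fits did not pair libraries by number. Whether same-numbered libraries share a collection or a batch cannot be told from these values or the labels. Python 3.11.15, numpy 2.4.6, pandas 2.3.3, scipy 1.17.1 and matplotlib 3.10.9 were used. Alternatives were other scalings, filters and pseudocounts, the 2 groups alone, a replicate block, libraries left out, and, chosen after seeing the data, the length slope as a covariate, the relations of Myh2, and list correlations without 2 libraries.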

Additional observations from a re-analysis of the deposited data

How the results depend on the processing

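The count of called members was 0 in each of the 6 contrasts under every alternative that was run, including limma-voom, the replicate block and the length slope as a covariate; the 2 groups alone were not fitted for the interaction or for both times together. Directions of uncalled members were less steady. The Myh7 difference at ZT0 was -0.04 with a pseudocount of 5, and at ZT12 it was 0.19 when both TG ZT12 replicate 1 and WT ZT0 replicate 2 were left out. Over both times, Myh7 turned positive under median-of-ratios scaling (0.09), upper-quartile scaling (0.09), a pseudocount of 0.1 (0.02), removal of the 10 highest genes (0.03), limma-voom (0.04) and without those 2 libraries (0.54), and Myh2 did under median-of-ratios (0.02) and upper-quartile scaling (0.02) and without those 2 libraries (0.01). The cause was not tested. Leaving out 1 library at a time gave ranges for Myh7 of -0.91 to 0.89 at ZT0, -0.58 to 0.31 at ZT12, -0.64 to 1.16 over time in WT, -0.31 to 0.51 over time in TG, -1.0 to 0.80 for the interaction and -0.47 to 0.34 over both times, and for Myh2 of -0.77 to 0.11 at ZT12, -0.32 to 0.40 over time in WT and -0.26 to 0.12 over both times. The difference of the Myh7 share ranged from -0.168 to 0.0107 points and that of the Myh2 share from -0.22 to 0.0871 points. With the replicate block the exact p was 0.469 for the Myh7 share and 0.656 for the Myh2 share, and the block changed no call of a member. Median-of-ratios scaling gave r = -0.24 for Myh2 with Myh7 and -0.22 with Atp2a2, and without the 2 libraries farthest from its median Myh2 had r = -0.23 with Myl3 and -0.01 with Myoz2. All-gene calls over time, 16 in TG and 12 in WT muscle, became 31 and 55 under median-of-ratios scaling, 29 and 47 under upper-quartile scaling, 28 and 56 with limma-voom, 75 and 122 with the length slope, 24 and 26 without the 10 highest genes, 71 and 73 without the 2 libraries named above, and 3 and 13 with the 2 groups alone; with 1 library left out they ran from 6 to 21 in TG and from 4 to 35 in WT muscle. For TG against WT, 1 gene was called at ZT0 with the 2 groups alone or without TG ZT12 replicate 3, and 2 at ZT12 without the 2 libraries, none of them a member. With a standard error of 0.75 for Myh7, a difference of that size was not detectable with 3 libraries a group.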
